A study of Mus musculus with 2 samples.

Results

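The 8 genes described here encode transcription factors and regulators that steer CD8+ T cells toward effector or memory fates: Tbx21, Eomes, Id2, Id3, Prdm1, Zeb2, Runx3 and Bcl6. They were chosen by name, and all 8 were found among the 32285 genes of the count matrix. The data are droplet single-cell RNA counts from CD8+ T cells of the spleen of WT mice, kept for 30 hr either rested or on 1 of 5 peptide-MHC stimuli. Per the deposited list of conditions, biotinylated monomers of the class I molecule H-2Db loaded with peptide were bound to streptavidin plates: M9C at 20, 2 or 0.2 pmol, or L6F at 80 or 20 pmol. Every culture was stained with its own hashtag antibody, a barcoded antibody that records which culture a cell came from, and all 6 were sorted as live cells and pooled into 1 lane. There was 1 culture per condition, so no test between conditions was possible and no p-value is given. Intervals are exact 95% intervals that cover counting error only, not differences between cultures. The sources used here do not say how many animals gave the cells or whether their T cell receptor was defined.

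T-bet, the product of Tbx21, and eomesodermin, the product of Eomes, are paralogous T-box factors. T-bet is known for driving the effector program of CD8+ T cells, and Eomes is linked more to memory and to later effector function. Id2 and Id3 lack a DNA-binding domain and hold E proteins (Tcf3, Tcf12, Tcf4) off their E-box sites, with Id2 linked to effector and Id3 to long-lived memory cells. Blimp-1 (Prdm1) and Bcl6 repress one another's programs, and Zeb2 is a zinc-finger repressor of transcription that is linked to terminal effector cells. Runx3 with its partner Cbfb maintains the CD8 lineage and its cytotoxic genes.

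The matrix held 13439 distinct barcodes, of which 11671 carried a single hashtag and 10600 passed the filters on genes and mitochondrial share. Kept cells numbered 755 rested and 1589 to 2477 per stimulated culture. The rested cells were much shallower, with a median of 1056 unique molecular identifiers (UMIs, counted molecules) per cell against 6050 to 7114 in the stimulated cultures, and 828 of 1583 rested barcodes fell under the minimum of 500 genes. Levels are given as CPM, the share of a culture's UMIs that fell on a gene, scaled to the same total for every culture. A gene with no UMI in the rested cells could have been present at up to 3.26 CPM (3 counts), and in the stimulated cultures at up to 0.187 to 0.264 CPM. The defining CD8 T markers Cd8a, Cd8b1, Cd3e and Cd3d were all present. Their summed level was 1563 to 1734 CPM in stimulated and 2600 CPM in rested cells. Cd4 was at most at 0.077 CPM in stimulated cells and had no UMI in rested cells. The 5 NK markers summed to 0.584 to 2.39 CPM in stimulated and 3.26 CPM in rested cells, mostly from Klre1. Ncr1 was at most at 0.218 CPM in stimulated cells and had no UMI in rested cells. Of 4 gamma-delta T markers, Trdc made up most of a summed level of 54.8 to 58.8 CPM with M9C, 93.2 to 101 CPM with L6F and 414 CPM in rested cells. Of 4 macrophage markers, Lyz2 made up most of 2.67 to 11.3 CPM with M9C, 16.7 to 26.2 CPM with L6F and 150 CPM in rested cells.

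The upstream sequences of 4 members are shown because these genes divide the group. Tbx21 was higher in stimulated cells, and Eomes and Id2 moved together with the stimulus. Id3 moved against Id2 along the M9C doses only. Each sequence is the 250 bases before the RefSeq transcript start in build GRCm38.p6, printed 5′ to 3′ on the strand of the gene. Capitals mark matches to the NFAT core GGAAA on either strand (TTTCC where it lies on the other strand). The windows are chr11:97115332-97115581 (minus strand) for Tbx21, chr9:118477939-118478188 (plus strand) for Eomes, chr12:25096093-25096342 (minus strand) for Id2 and chr4:136143572-136143821 (plus strand) for Id3.
Tbx21: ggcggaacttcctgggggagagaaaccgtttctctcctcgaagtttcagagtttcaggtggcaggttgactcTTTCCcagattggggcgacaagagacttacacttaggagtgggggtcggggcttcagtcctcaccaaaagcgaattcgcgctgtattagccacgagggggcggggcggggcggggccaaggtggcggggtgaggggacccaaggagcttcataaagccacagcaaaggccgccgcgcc
Eomes: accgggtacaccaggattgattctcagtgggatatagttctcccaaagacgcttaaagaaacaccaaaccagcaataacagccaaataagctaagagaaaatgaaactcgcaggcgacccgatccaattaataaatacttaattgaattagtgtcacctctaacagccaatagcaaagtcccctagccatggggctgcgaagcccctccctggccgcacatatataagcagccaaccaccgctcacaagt
Id2: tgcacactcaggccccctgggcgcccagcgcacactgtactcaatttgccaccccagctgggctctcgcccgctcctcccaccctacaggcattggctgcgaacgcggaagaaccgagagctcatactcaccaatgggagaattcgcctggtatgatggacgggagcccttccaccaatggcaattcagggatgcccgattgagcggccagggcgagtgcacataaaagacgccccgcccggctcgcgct
Id3: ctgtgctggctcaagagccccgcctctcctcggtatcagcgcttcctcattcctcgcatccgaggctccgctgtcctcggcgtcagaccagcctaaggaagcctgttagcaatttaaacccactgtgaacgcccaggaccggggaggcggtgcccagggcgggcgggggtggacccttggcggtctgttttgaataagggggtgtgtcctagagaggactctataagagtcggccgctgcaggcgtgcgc
The Tbx21 window held 1 NFAT core and the other 3 windows held 0, where 55.7% of the 32536 upstream windows of this length held at least 1. Matches to the E-box CANNTG numbered 1 for Tbx21, 1 for Id2, 0 for Eomes and 0 for Id3, and 66.2% of all windows held at least 1. None of the 4 windows held the AP-1 site TGANTCA, the T-box half-site GGTGTGA or the Runx site TGTGGT, which 6.73%, 3.33% and 14.0% of all windows held. A match is a description of the letters only. The Id2 and Id3 windows lie inside the annotated gene spans given next, and the Tbx21 and Eomes windows lie outside theirs. In the GENCODE vM21 annotation of GRCm38 the 8 genes are protein coding, with Tbx21 at chr11:97098071-97115331, Eomes at chr9:118478212-118486132, Id2 at chr12:25093799-25097140, Id3 at chr4:136143497-136145755, Prdm1 at chr10:44437177-44528501, Zeb2 at chr2:44983632-45117395, Runx3 at chr4:135120652-135177990 and Bcl6 at chr16:23965052-23988852.

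All 10 contrasts were read with 1 rule: a gene was measured where it reached 10 CPM in either condition, and it was called where the CPM differed at least 2-fold and the interval of the ratio excluded equality. Tbx21, Eomes, Id2, Id3 and Runx3 were measured in every contrast, whereas Zeb2, Prdm1 and Bcl6 stayed below the minimum in every condition. Against rested cells, 1 member was higher (Tbx21) and 2 were lower (Eomes and Id2) with 20 pmol M9C, where 32.9% of 7779 measured genes were called, 16.9% higher and 16.0% lower. With 2 pmol M9C the same 3 members were called, against 33.1% of genes (16.7% higher, 16.4% lower). With 0.2 pmol M9C, Tbx21 was higher and Id2 lower, and 32.8% of genes were called (16.5% higher, 16.3% lower). Both L6F cultures also had Tbx21 higher and Id2 lower. At 80 pmol L6F 26.8% of genes were called (13.5% higher, 13.3% lower), and at 20 pmol 28.3% (14.3% higher, 14.0% lower). Calls over rested cells were thus common among all genes. Between stimulated cultures they were rare. No member was called between 20 and 2 pmol M9C, where 0.072% of genes were called (0.0288% higher, 0.0432% lower). The same held between 2 and 0.2 pmol M9C, with 0.187% of genes called (0.115% higher, 0.0719% lower), and between 80 and 20 pmol L6F, with 0.0%. Eomes was the 1 member called between 20 and 0.2 pmol M9C, lower at the high dose, where 0.416% of 6973 genes were called, 0.272% higher and 0.143% lower. Eomes and Id2 were both lower with 20 pmol M9C than with 20 pmol L6F, where 1.64% of 7014 genes were called, 0.884% higher and 0.756% lower.

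**Figure D1:**
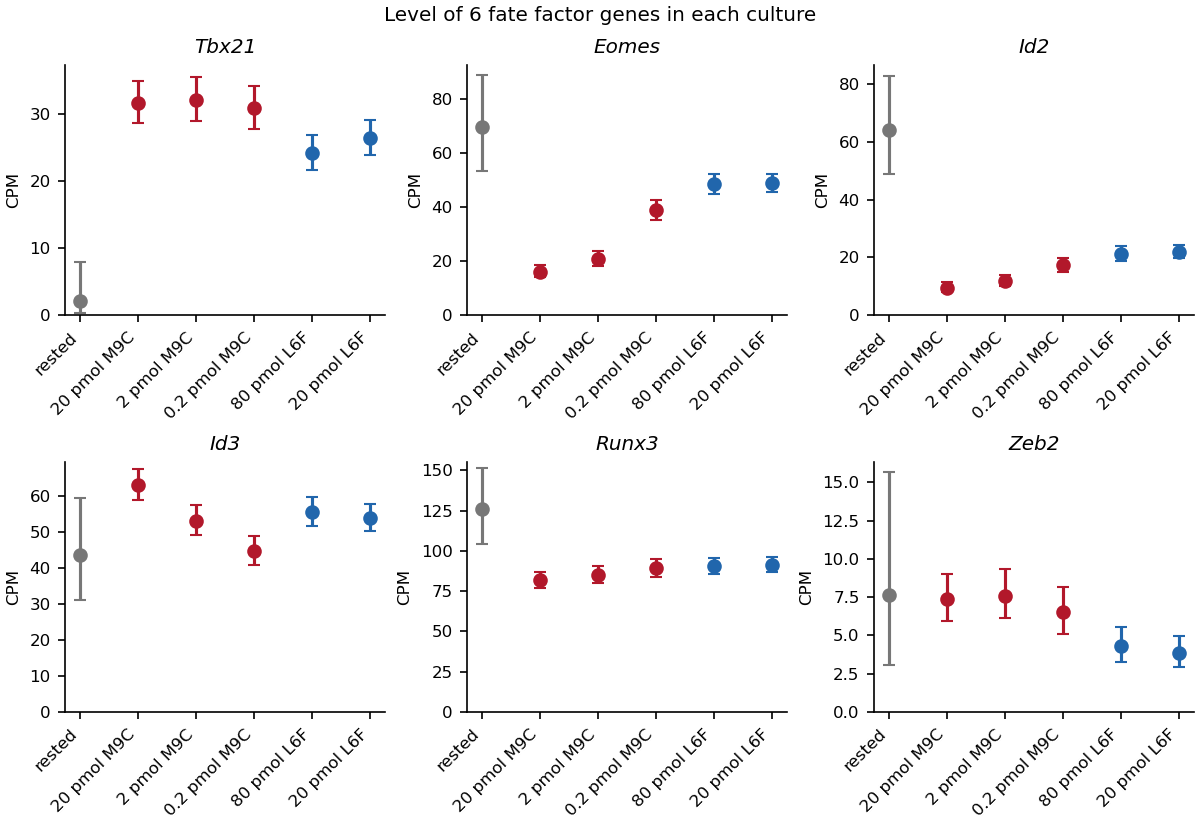
Level of 6 members in CPM (vertical axes, linear from 0) in the rested culture (grey), the 3 M9C cultures (red) and the 2 L6F cultures (blue). Points are the level of the 1 culture and bars its exact 95% counting interval. Tbx21 stood at 24.1 to 32.0 CPM in the 5 stimulated cultures and 2.18 CPM in rested cells, while Eomes and Id2 were lowest with 20 pmol M9C.

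Tbx21 was close to absent from rested cells and present at a near-equal level at every M9C dose. It gave 2 UMIs in the 755 rested cells (2.18 CPM, interval 0.264 to 7.86). Its level was 31.6 CPM with 20 pmol M9C, 32.0 with 2 pmol, 30.8 with 0.2 pmol, 24.1 with 80 pmol L6F and 26.4 with 20 pmol L6F. The stimulated cultures thus all lay above the rested interval, by 14.5-fold with 20 pmol M9C (interval 3.99 to 120) and 11.1-fold with 80 pmol L6F (3.04 to 91.7). The width of these intervals comes from the 2 rested UMIs. The 3 M9C intervals overlapped one another, and that of 80 pmol L6F overlapped none of them. Across a 100-fold M9C dose range the log2 ratio of 20 over 0.2 pmol was 0.04 (-0.17 to 0.25). At 20 pmol the M9C level was 1.20-fold the L6F level (1.04 to 1.38), below the 2-fold threshold, and this ratio took the opposite sign (log2 -0.12) when every cell was thinned at random to 1000 UMIs. Tbx21 UMIs were seen in 18.2, 18.7 and 17.9% of cells at 20, 2 and 0.2 pmol M9C, in 13.2 and 14.1% at 80 and 20 pmol L6F, and in 0.265% of rested cells. Thinned to 3000 UMIs per cell, so that depth was equal, these shares were 8.17, 9.20, 8.20, 6.89 and 6.91%, with overlapping intervals. Among 20 barcodes with red-cell markers and no T cell genes (median 5918.5 UMIs), none had a Tbx21 UMI, which bounds the share there at 16.8%.

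Eomes had the largest ratios between stimulated cultures among the 5 measured members, and its level was graded with M9C dose. Rested cells gave 69.6 CPM (53.6 to 88.9), and the M9C cultures gave 16.1 CPM at 20 pmol (14.0 to 18.4), 20.9 at 2 pmol (18.4 to 23.7) and 39.0 at 0.2 pmol (35.5 to 42.8). Both L6F cultures lay above every M9C culture, at 48.5 CPM for 80 pmol (44.9 to 52.3) and 49.0 CPM for 20 pmol (45.6 to 52.5). The intervals of 2 and 20 pmol M9C overlapped only at their ends, those of the 2 L6F doses overlapped almost fully, and the other neighbours in the order did not overlap. The 20 pmol M9C level was 2.42-fold below that of 0.2 pmol (2.05 to 2.87) and 3.04-fold below that of 20 pmol L6F (2.61 to 3.56). The step from 0.2 to 2 pmol carried more of this difference, with a log2 ratio of -0.90 (-1.13 to -0.67) against -0.38 (-0.65 to -0.11) from 2 to 20 pmol. L6F at 80 over 20 pmol gave -0.01 (-0.16 to 0.14).

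The dose pattern of Eomes appeared in the number of cells with a UMI and, less, in UMIs per such cell. With M9C there were only 0.111 (20 pmol) to 0.279 (0.2 pmol) Eomes UMIs per cell. At such counts a change in level falls mostly on the share of cells with a UMI. The split therefore cannot tell more expressing cells from more Eomes RNA per cell. Eomes was seen in 9.15, 11.6 and 20.5% of cells at 20, 2 and 0.2 pmol M9C and in 22.6 and 24.1% at 80 and 20 pmol L6F. At 3000 UMIs per cell the shares were 4.85% (3.90 to 5.97), 5.45, 11.2, 13.1 and 13.3% (12.0 to 14.8) in the same order. Cells with a UMI held 1.22 Eomes UMIs on average at 20 pmol M9C and 1.36 at 0.2 pmol. None of the 20 barcodes with red-cell markers had an Eomes UMI, which bounds the share there at 16.8%. That bound lies above the unthinned shares at 20 and 2 pmol M9C, so it cannot set those 2 cultures apart from free RNA. Gamma-delta and macrophage marker levels were higher in the L6F cultures, as given above. Without every cell that held 2 or more UMIs of another cell type's marker list, the log2 ratio of 20 pmol M9C over L6F was -1.57 in place of -1.60, and that over 0.2 pmol M9C was -1.29 in place of -1.28.

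Against rested cells the direction for Eomes depended on the scale. In CPM the log2 ratio was -2.11 with 20 pmol M9C, -1.73 with 2 pmol, -0.84 with 0.2 pmol, -0.52 with 80 pmol L6F and -0.51 with 20 pmol L6F, while in UMIs per cell the same contrasts gave 0.39, 0.80, 1.72, 1.84 and 1.90. Stimulated cells held more UMIs in all, and the median log2 ratio of all measured genes was 2.43 to 2.65 in UMIs per cell and 0.07 to 0.10 in CPM. Relative to that median, Eomes was lower in stimulated cells on both scales. In UMIs per cell no member was called lower than in rested cells, and 3 to 4 were called higher. These were Tbx21, Id3 and Runx3 in all 5 contrasts, and Eomes with 0.2 pmol M9C and both L6F doses. The median gene itself was more than 2-fold higher on this scale, and Eomes and Runx3 lay below that median. The share of all genes called per cell was not counted, so these calls do not set the members apart.

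**Figure D2:**
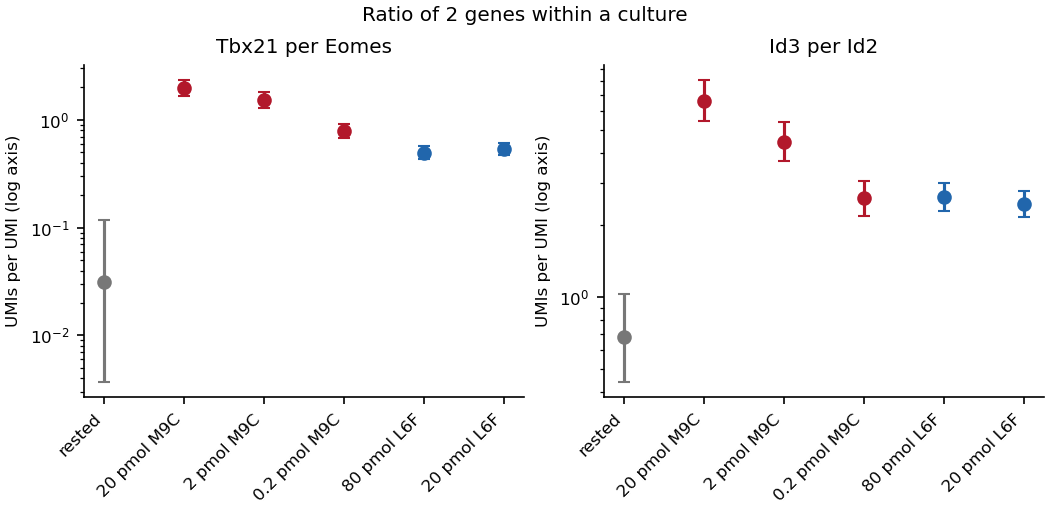
UMIs of Tbx21 per UMI of Eomes (left) and of Id3 per UMI of Id2 (right) in each culture, on log axes, with rested in grey, M9C in red and L6F in blue. Bars are exact 95% counting intervals. Both ratios were highest with 20 pmol M9C, at 1.96 and 6.62, and lowest in rested cells, at 0.031 and 0.678.

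A ratio of 2 genes within a culture is not scaled by depth or RNA content, but it can change with the cells kept. Tbx21 per Eomes UMI was 0.031 in rested cells (0.004 to 0.118), 1.96 with 20 pmol M9C (1.66 to 2.33), 1.53 with 2 pmol (1.30 to 1.80) and 0.788 with 0.2 pmol (0.683 to 0.909). It was 0.496 with 80 pmol L6F (0.434 to 0.567) and 0.538 with 20 pmol L6F (0.477 to 0.607). The 0.2 pmol M9C culture therefore lay above both L6F cultures without overlap, and the 2 L6F doses overlapped. This pair and the pair below were chosen after their levels had been seen, so the ratios restate the values above on a depth-free scale.

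**Figure D3:**
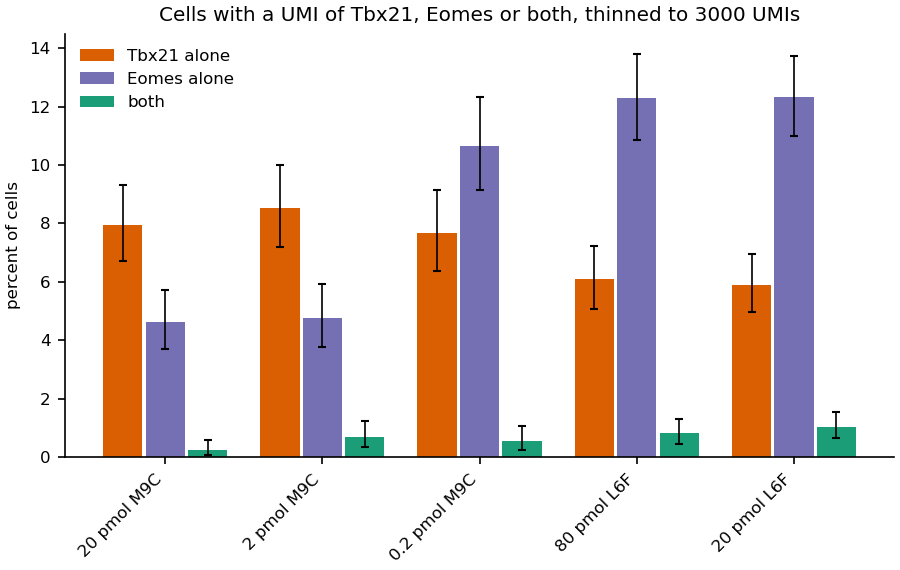
Share of cells (percent, linear axis from 0) with a UMI of Tbx21 alone (orange), Eomes alone (purple) or both (green) in the 5 stimulated cultures, after thinning each cell to 3000 UMIs. Bars are exact 95% binomial intervals. Eomes alone was 4.63% with 20 pmol M9C and 12.3% with 20 pmol L6F, and cells with both made up 0.228 to 1.02%.

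Few cells held UMIs of both T-box genes. At 3000 UMIs per cell, 139 of 1751 cells with 20 pmol M9C (7.94%) held Tbx21 alone, 81 (4.63%) held Eomes alone and 4 (0.228%) held both. With 20 pmol L6F, 133 of 2258 cells (5.89%) held Tbx21 alone, 278 (12.3%) held Eomes alone and 23 (1.02%) held both. The order of the 2 single classes turned between 2 and 0.2 pmol M9C: Tbx21 alone was 8.52% and Eomes alone 4.76% at 2 pmol, against 7.67% and 10.7% at 0.2 pmol. Over the 5 cultures 62 cells held both, where the product of the separate shares gave 67.4. Cells with both were above that product in 2 of 5 cultures and below it in 3, with ratios of 0.58 to 1.37. With 4 to 23 such cells per culture, a departure from the product was not detectable at this depth. Most cells held neither, 80.8 to 87.2%, and at about 1 UMI per positive cell a cell without a UMI may still have expressed the gene.

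Id2, the Id protein linked to effector cells, followed the same order of cultures as Eomes. Rested cells gave 64.2 CPM (48.9 to 82.8), the M9C cultures 9.52 CPM at 20 pmol (7.91 to 11.4), 11.9 at 2 pmol (9.98 to 14.0) and 17.2 at 0.2 pmol (14.9 to 19.8), and the L6F cultures 21.3 CPM at 80 pmol and 22.0 at 20 pmol. Neighbouring intervals overlapped between 20 and 2 pmol M9C, between 0.2 pmol M9C and 80 pmol L6F, and between the L6F doses. Id2 was 2.31-fold lower with 20 pmol M9C than with 20 pmol L6F (1.87 to 2.86). From 0.2 to 20 pmol M9C it differed by 1.81-fold (1.44 to 2.29), under the 2-fold threshold. One cell at 0.2 pmol held 11 Id2 UMIs of the 196 in that culture. Without cells holding 2 or more marker UMIs of another cell type, the log2 ratios were -1.14 over L6F in place of -1.21, and -0.73 over 0.2 pmol M9C in place of -0.86.

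Id2 was lower than in rested cells in all 5 contrasts in CPM, by 6.74-fold with 20 pmol M9C (4.86 to 9.27) and by 2.92-fold with 20 pmol L6F (2.18 to 3.86), but in UMIs per cell the log2 ratios were -0.25, 0.09, 0.66, 0.76 and 0.86 from 20 pmol M9C to 20 pmol L6F. All 5 lay below the per-cell median of all genes. Marker levels of gamma-delta T cells and macrophages were also highest in rested cells. With cells carrying such markers left out, Id2 was at 70.0 and Eomes at 72.7 CPM in rested cells. The share of cells with an Id2 UMI was 6.75% in rested cells and 5.94 to 11.0% in stimulated ones. Thinned to 1000 UMIs it was 5.60% in rested cells and 0.913, 1.24, 1.76, 2.45 and 2.19% in the stimulated cultures.

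Id3, the Id protein linked to memory cells, ran the opposite way with M9C dose. It stood at 63.0 CPM with 20 pmol M9C (58.8 to 67.5), 53.0 with 2 pmol (49.0 to 57.3) and 44.7 with 0.2 pmol (40.9 to 48.7), and the 3 intervals did not overlap. L6F gave 55.6 CPM at 80 pmol and 53.8 at 20 pmol, both overlapping 2 pmol M9C, and the 80 pmol interval also reached that of 20 pmol M9C. Rested cells gave 43.5 CPM from 40 UMIs, with an interval of 31.1 to 59.3 that held 4 of the 5 stimulated levels. The log2 ratio of 20 over 0.2 pmol M9C was 0.50 (0.34 to 0.66) and that of 20 pmol M9C over L6F was 0.23 (0.09 to 0.37). Both excluded equality and neither reached 2-fold. At 3000 UMIs per cell Id3 was seen in 16.5% of cells at 20 pmol M9C (14.8 to 18.3), 15.4% at 2 pmol and 11.7% at 0.2 pmol (10.1 to 13.5), and in 14.2 and 14.1% with L6F.

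Id3 per Id2 UMI therefore spread more than either gene. The ratio was 0.678 in rested cells (0.442 to 1.03), 6.62 with 20 pmol M9C (5.47 to 8.07), 4.47 with 2 pmol (3.72 to 5.40) and 2.59 with 0.2 pmol (2.19 to 3.07), and 2.61 and 2.45 with 80 and 20 pmol L6F. The lowest M9C dose and both L6F doses overlapped, unlike for the T-box pair. Cells with UMIs of both Id genes were fewer than the product of the shares in 5 of 5 cultures at 3000 UMIs, 38 cells in all against 55.3, with ratios of 0.49 to 0.97. Eomes and Id2 were seen together in 47 cells, against 37.8, over the 3 cultures where the product was at least 5 cells, and were above it in all 3. These counts are descriptions of 1 lane of cells.

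**Figure D4:**
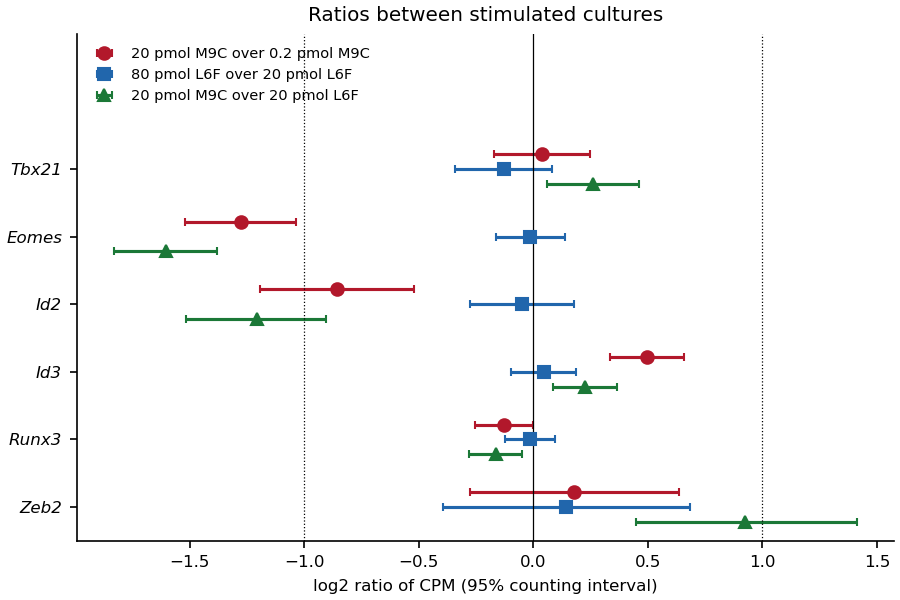
Log2 ratio of CPM (horizontal axis) for 6 members in 3 contrasts: 20 over 0.2 pmol M9C (red circles), 80 over 20 pmol L6F (blue squares) and 20 pmol M9C over 20 pmol L6F (green triangles). Bars are 95% counting intervals, the solid line marks equality and the dotted lines a 2-fold difference. Eomes reached -1.28 and -1.60 in the M9C dose and peptide contrasts and -0.01 in the L6F dose contrast.

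Of the 7 genes of the Id family and the E proteins they bind, 4 were measured (Id2, Id3, Tcf3 and Tcf12), and Id2 was the 1 gene called over rested cells and between peptides. Tcf3, which encodes E2A, was at 25.3 CPM with 20 pmol M9C, 32.6 with 20 pmol L6F and 27.2 in rested cells. Tcf12, which encodes HEB, was at 48.2 CPM with 20 pmol M9C, 51.6 with 20 pmol L6F and 81.6 in rested cells. The log2 ratios of 20 pmol M9C over L6F were -0.36 for Tcf3 (-0.57 to -0.16) and -0.10 for Tcf12 (-0.25 to 0.05). Tcf4 (2.32 to 5.44 CPM in these 3 cultures) and Id1 (at most 0.31 CPM) were under the minimum, and Id4 had no UMI in any condition. The median log2 ratio of the 4 measured genes was -0.23 for 20 pmol M9C over L6F, against 0.02 for all genes.

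Runx3 varied least between stimuli among the measured members. Its level was 81.6 CPM with 20 pmol M9C (76.7 to 86.7), 85.2 with 2 pmol, 89.1 with 0.2 pmol, 90.6 with 80 pmol L6F and 91.5 with 20 pmol L6F (86.9 to 96.3), and 126 CPM in rested cells (104 to 151). Each stimulated interval overlapped that of its neighbour in the order, and the 2 ends of the order did not overlap by a narrow margin. The log2 ratio of 20 pmol M9C over L6F was -0.16 (-0.28 to -0.05). Over rested cells Runx3 was at -0.63 to -0.46 in CPM and 1.88 to 2.05 in UMIs per cell, with opposite signs on the 2 scales. It was seen in 39.7 to 44.5% of stimulated cells, and in 21.7 to 24.8% at 3000 UMIs. In 8 of the 20 barcodes with red-cell markers a Runx3 UMI was present (40.0%, 19.1 to 63.9) and in 0 of 10 with macrophage markers (up to 30.8%), and the unthinned shares of all 5 stimulated cultures lay inside the interval of the red-cell barcodes. Of the Runx genes and Cbfb, 2 of 4 were measured between stimuli and neither was called. Cbfb was at 28.1 CPM with 20 pmol M9C and 26.2 with L6F. Runx1 was 3.73-fold lower with 20 pmol M9C than in rested cells (1.86 to 6.98).

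Zeb2 was low everywhere, at 3.87 to 7.62 CPM, and stayed under the 10 CPM minimum. It gave 7.36 CPM with 20 pmol M9C (5.95 to 8.99), 7.59 with 2 pmol, 6.50 with 0.2 pmol, 4.28 with 80 pmol L6F and 3.87 with 20 pmol L6F (2.97 to 4.96), and 7.62 CPM from 7 UMIs in rested cells (3.06 to 15.7). None of the 3 M9C intervals overlapped that of 20 pmol L6F, and the ratio of 20 pmol M9C over L6F was 1.90-fold (1.37 to 2.66). At 3000 UMIs per cell its share was 2.17, 2.44 and 1.80% in the M9C cultures and 1.01 and 1.11% in the L6F cultures. Zeb2 UMIs were also present in 7 of 20 barcodes with red-cell markers and 7 of 10 with macrophage markers, above the share of every kept culture. Macrophage marker levels were lower in the M9C than in the L6F cultures. The 4 red-cell markers summed to 7.59, 41.1 and 3.69 CPM at 20, 2 and 0.2 pmol M9C. With 80 and 20 pmol L6F they summed to 2.47 and 3.50 CPM. The part of such cells in the Zeb2 levels was not tested. Without cells holding 2 or more marker UMIs of another cell type the log2 ratio over L6F was 1.06 in place of 0.93. Of the 8 Zeb and corepressor genes, 6 were measured and none was called between stimuli, with a median log2 of 0.03 over L6F. Zeb1, the paralog of Zeb2, was at 31.5 CPM with 20 pmol M9C and 30.1 with L6F, and Ctbp1, a corepressor, at 155 and 153 CPM. Hdac3, a histone deacetylase of corepressor complexes, was 2.22-fold higher with 20 pmol M9C than in rested cells (1.31 to 4.10).

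The repressors Prdm1 and Bcl6 were close to undetected at this time. Prdm1 gave 1 UMI in rested cells and 2, 1, 1, 2 and 4 UMIs in the stimulated cultures from 20 pmol M9C to 20 pmol L6F, that is 11 UMIs in 10600 cells. Its stimulated level was 0.083 to 0.250 CPM, and every Prdm1 interval overlapped every other. Bcl6 gave 0 UMIs in rested cells, which allows up to 3.26 CPM, and 11, 6 and 7 UMIs with 20, 2 and 0.2 pmol M9C against 4 and 3 with 80 and 20 pmol L6F. The Bcl6 level with 20 pmol M9C was 0.852 CPM (0.425 to 1.52), 4.55-fold that of 20 pmol L6F with a wide interval (1.20 to 25.4) from 11 against 3 UMIs. With the CPM minimum removed, Bcl6 would be called in that contrast.

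The lists of genes around the members were read beside the same contrasts. Of all measured genes, 32.9% were called over rested cells with 20 pmol M9C and 1.64% between the peptides at 20 pmol. From 0.2 to 20 pmol M9C, 0.416% were called. Calls and folds of list genes over rested cells are in CPM and depend on the scale, as given at the end. Of 12 T-bet and Eomes target genes, 8 were measured between 20 pmol M9C and L6F, and 3 were higher and 0 lower with M9C. These were the chemokine gene Xcl1, 10.3-fold (8.68 to 12.2), the perforin gene Prf1, 4.35-fold (3.67 to 5.18), and the interferon gamma gene Ifng, 4.10-fold (3.72 to 4.52). The granzyme B gene Gzmb went the other way without being called, at 129 CPM with M9C and 248 with L6F, and the list median log2 was -0.01 against 0.02 for all genes. From 0.2 to 20 pmol M9C, 4 of 8 were higher: Xcl1 3.51-fold, Prf1 2.58-fold, the chemokine gene Ccl5 2.14-fold and Ifng 2.04-fold. Tbx21 did not differ beyond counting error in that contrast and Eomes was lower. The targets over rested cells were 5 higher and 2 lower of 8 with 20 pmol M9C.

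Of 13 cytokine receptor and STAT genes, 12 were measured between stimuli and 0 were called in any of the 5 such contrasts. Over rested cells with 20 pmol M9C, 3 of 13 were higher and 3 lower, where 16.9% of all measured genes were higher and 16.0% lower. Both chains of the IL-12 receptor, which signals to T-bet and Eomes, were among the higher ones, Il12rb1 at 24.5 against 1.09 CPM (22.6-fold, 4.02 to 894) and Il12rb2 at 24.5 against 3.26 CPM (7.52-fold, 2.55 to 36.6). Il12rb2 was at 37.3 CPM with 20 pmol L6F, a log2 ratio of -0.60 for M9C over L6F (-0.80 to -0.40), under the 2-fold threshold. Ifngr1, which encodes a chain of the interferon gamma receptor, was 14.6-fold lower than in rested cells (12.2 to 17.5).

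Of 12 activation-induced factors, 11 were measured between the peptides at 20 pmol. Nr4a2, an orphan nuclear receptor, was 5.09-fold higher with M9C (3.81 to 6.88) and Bhlhe40, a helix-loop-helix repressor, 2.21-fold higher (1.84 to 2.66), while the AP-1 family gene Batf3 was 2.05-fold lower (1.84 to 2.27). Over rested cells 10 of 11 were higher with 20 pmol M9C, against 16.9% of all measured genes. Among the 9 naive and stem-like factors, all were measured and 0 were called between stimuli. With 20 pmol M9C, 7 were lower than in rested cells, against 16.0% of all measured genes. Klf2, a quiescence factor, led these at 14.6 against 563 CPM (38.7-fold). Of 10 effector and memory surface markers, 6 were measured between the peptides. Those lower with M9C included Ly6c2, a Ly6C gene, by 4.42-fold (3.89 to 5.05) and the IL-7 receptor gene Il7r by 4.25-fold (3.31 to 5.51). Klrg1, a marker of terminal effector cells that T-bet and Zeb2 are linked to, was at 0.145 CPM with 80 pmol L6F and had no UMI in the other cultures. Of 6 Runx3-linked lineage genes, 3 were measured between the peptides and 1 was called, Prf1, with a list median log2 of 0.21.

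**Figure D5:**
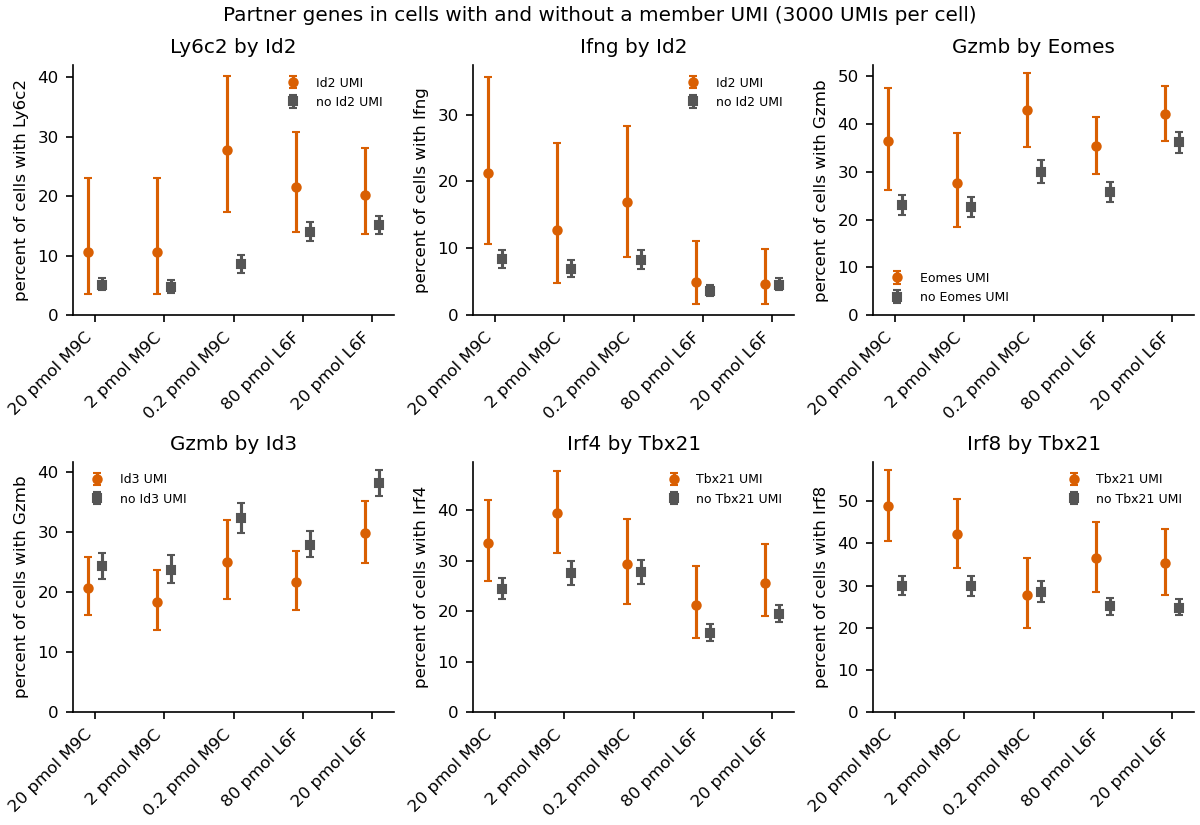
Percent of cells with a UMI of a partner gene (vertical axes, linear from 0) among cells with (orange circles) and without (grey squares) a UMI of Id2, Eomes, Id3 or Tbx21, in the 5 stimulated cultures at 3000 UMIs per cell. Bars are exact 95% binomial intervals. Gzmb was seen more often in Eomes-positive and less often in Id3-positive cells in 5 of 5 cultures. The partner genes were picked for large differences in these same cultures.

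Cells with a member UMI were compared with the rest of their own culture at 3000 UMIs per cell, for the genes of the same lists and with no p, since cells of 1 culture are not replicates. Partner genes named here and below were picked for a large mean difference over these same 5 cultures. Agreement between the cultures is thus no independent support. Eomes-positive cells held Gzmb, the granzyme B gene, more often in 5 of 5 cultures, in 346 of 901 cells over all cultures, with a mean over cultures of 36.9% against 27.5% of Eomes-negative cells. Tcf12 and Il2ra were each more frequent in 4 of 5 cultures. Id3-positive cells held Gzmb less often in 5 of 5 cultures, on average 23.1% against 29.3%. Eomes and Id3 were thus opposite in their relation to Gzmb within a culture. Between the peptides at 20 pmol Gzmb and Eomes were both higher with L6F, whereas in rested cells Eomes was high and Gzmb was at 39.2 CPM.

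Id2-positive cells held Ly6c2 more often in 5 of 5 cultures, on average 18.1% against 9.53%, and Ifng more often in 5 of 5, 12.1% against 6.34%. The Ifng difference was wide with M9C, at 21.3% of 47 cells against 8.39% at 20 pmol, and small with 20 pmol L6F, at 4.65% of 129 cells against 4.56%. Il2ra, which encodes the IL-2 receptor alpha chain, was less frequent in Id2-positive cells in 4 of 5 cultures. Tbx21-positive cells held Irf4 more often in 5 of 5 cultures, 29.8% against 22.9%, and Irf8 in 4 of 5, 38.1% against 27.6%, the exception being 0.2 pmol M9C. Both encode factors induced through the T cell receptor. Zeb2-positive cells, 20 to 39 per culture, held the coreceptor gene Cd8b1 less often in 5 of 5 cultures, 55.1% against 67.9%. Zeb2 was also present in barcodes of other cell types, as given above, and their part in this difference was not tested. Runx3-positive cells differed from the rest by at most 2.77 percentage points on average for any listed gene.

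The genes closest to each member over the 6 cultures were sought among 5859 genes that reached 20 CPM in at least 1 culture, by the root mean square difference of log2(CPM + 1) after centring. For Tbx21 they were Mybl2, Mcm10 and Irf8 (differences of 0.10, 0.10 and 0.10), with Irf8 at 12.0 CPM in rested cells and 120 to 162 in stimulated ones. For Eomes they were Gprin3, Tesc and Mtss1 (0.18, 0.25 and 0.25), and Gprin3 stood at 82.7 CPM in rested cells, 27.3, 35.6 and 52.5 at 20, 2 and 0.2 pmol M9C, and 75.8 and 74.7 with L6F. Eomes thus had no gene as near to it as the other members had. For Id2 they were Gpr146, Treml2 and 1 of 2 gene IDs that share the symbol Jakmip1 (0.10, 0.14 and 0.15), with Gpr146 at 53.3 CPM in rested cells, 9.52, 9.68 and 14.0 with M9C and 17.1 and 17.9 with L6F. For Id3 they were Jade2, Atg16l2 and Xpo7 (0.06, 0.07 and 0.09) and for Runx3 Ing1, Vps41 and Vamp8 (0.02, 0.03 and 0.03). These are likenesses over 6 values that share 1 lane.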

How the data were processed

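Single-cell RNA and hashtag counts from 6 pooled cultures were used as deposited by the authors. The submitters' processing notes name bcl2fastq, Cell Ranger 6.0.1 and the build GRCm38 (mm10). The rule that told cells from empty droplets is not given in the sources used here, nor is the gene annotation. The 2 labelled samples are the RNA and hashtag libraries of the same barcodes. A barcode was given a culture where its top hashtag had at least 20 counts and 80% of all hashtag counts, which also served against doublets (1768 barcodes had no single hashtag). Cells under 500 genes or over 10% mitochondrial UMIs were left out. The total per culture was 918920 UMIs for rested cells and 11376897 to 16014100 UMIs for stimulated cells. CPM carry exact Poisson intervals, shares Clopper-Pearson intervals and ratios exact binomial intervals, all at 95% and for counting error only. A gene at 0 was given a floor of 3 counts. Shares were repeated after thinning cells at random to 1000 UMIs (464 of 755 rested cells and all but 3 to 10 cells per stimulated culture were deep enough) or 3000 UMIs (stimulated cells only, 89 to 220 left out per culture). Red-cell, macrophage and basophil barcodes, picked by markers, served as a check on free RNA. The scripts were tested on simulated data.

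Members, lists and tests were chosen with earlier results of these data known. Named genes are all 8 members, up to 4 called genes per list and contrast with the largest ratios, the 3 nearest genes per member and up to 4 partner genes with the largest difference in share. Some further list genes (Tcf3, Tcf12, Tcf4, Id1, Id4, Cbfb, Zeb1, Ctbp1, Gzmb and Klrg1) were named after their values were seen. Alternatives were HTODemux (Seurat 5.3.0 in R 4.3.3) and a stricter rule for hashtags, other cell filters, other scales and CPM minimums. Python 3.11.15, numpy 2.4.6, scipy 1.17.1 and pandas 2.3.3 were used. Promoters and their build came from RefSeq, which held the starts of all 8 genes. Protein sequences were not used here. The values of 1 list gene are not reported here.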

Additional observations from a re-analysis of the deposited data

Results flagged for a closer look

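Of the 8 members, 7 were detected in the 1768 barcodes that no single hashtag could be given to and that entered no contrast, above the limit of 0.181 CPM that a count of 0 allows there. These barcodes held 16610365 UMIs, with a median of 8582 UMIs per barcode against 6050 to 7114 in the stimulated cultures. Tbx21 was at 29.6 CPM and Eomes at 34.9 CPM. Id2 was at 15.7 CPM and Id3 at 54.8 CPM. Runx3 was at 86.7 CPM, Zeb2 at 6.80 CPM and Bcl6 at 0.421 CPM. Prdm1 was at the limit, with 3 UMIs. For all 7 the value lay within the range of the 5 stimulated cultures.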

How the results depend on the processing

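Between stimulated cultures the members called did not change under any alternative run, apart from 20 pmol M9C over L6F, where Bcl6 was also called higher with no CPM minimum and Zeb2 after thinning to 1000 UMIs. Except for thinning to 1000 UMIs, the log2 ratio of 20 pmol M9C over L6F ranged over -1.62 to -1.51 for Eomes, -1.24 to -1.11 for Id2 and 0.22 to 0.36 for Tbx21. Thinned, Tbx21 was at -0.12 and Zeb2 at 1.85, from few UMIs. Over rested cells, UMIs per cell turned the sign of some ratios that were called in CPM. These were Eomes with 20 and 2 pmol M9C (log2 0.39 and 0.80) and Id2 with 2 and 0.2 pmol M9C and 80 and 20 pmol L6F (0.094, 0.66, 0.76 and 0.86). Some ratios not called in CPM turned as well, such as Eomes with 0.2 pmol M9C and both L6F doses and Runx3 in all 5 contrasts. In UMIs per cell the median gene was itself more than 2-fold higher than in rested cells. The members called over rested cells with 0.2 pmol M9C and both L6F doses went from 2 to 4 on that scale. They went to 1 under the stricter hashtag rule (50 counts, 95%), which kept 19 rested cells, none with a Tbx21 UMI. That 1 member was Eomes, lower, while Id2 was no longer called there. Tbx21 was not called in any of the 5 contrasts over rested cells under that rule. A minimum of 1000 genes kept 47 rested cells, also with no Tbx21 UMI, and Tbx21 was then not called over rested cells. Zeb2 in rested cells went from 7.62 to 48.2 CPM under that minimum and to 23.9 CPM with HTODemux, and under both it was called lower in all 5 stimulated cultures. Counts of list genes called over rested cells also depended on the processing. In UMIs per cell 26 such counts moved beyond a set margin and 19 did not. Under the stricter hashtag rule 36 moved and 9 did not, and with the minimum of 1000 genes 25 moved and 20 did not. Between stimulated cultures, thinning to 1000 UMIs moved 5 list counts and left 40. Of the ratios of 2 genes within a culture, 2 left their counting intervals under the stricter hashtag rule and 10 did not. The minimum of 1000 genes gave the same counts. Apart from the loss of the Tbx21 calls, the cause of these changes was not tested. No paired analysis was possible because each condition was 1 culture. Depth limits every rested value, since 918920 UMIs stood behind it.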
